A study of Oryza sativa with 4 samples.

Results

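RTS, C6, C4 and RAFTIN1 are 4 rice genes known from the anther, and all of them gave a clear signal in leaf RNA of control plants and a much lower one in leaf RNA of plants labelled as overexpressing the response regulator OsRR6. They were taken as the genes whose symbol or synonym, without the prefix Os, is one of these names in RefSeq's table of rice genes (assembly ASM3414082v1), together with every probe set assigned to that single gene. This gave 4 genes of the 17905 that have a probe set of their own, each with 1 probe set. The genes were chosen because their signal differed between the 2 groups on these same arrays, so their levels and differences are given as a description, with no test.

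The arrays were single-colour Affymetrix rice arrays hybridised with biotin-labelled leaf RNA, 1 sample per array. All plants were Oryza sativa cultivar Nipponbare, T0 primary transformants raised from callus under hygromycin selection, grown hydroponically until heading under a cycle of 12 h light (30 °C) and 12 h dark (25 °C), and sampled at 75 days. The 2 control samples carried the empty vector pActnos/Hmz and the 2 overexpressor samples the vector pActnos/Hmz-OsRR6. The labels name no promoter beyond the vector and do not say whether the samples of a group are separate plants or separate transformation events, so the spread between them may be technical.

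The tapetum is the innermost cell layer of the anther wall. It feeds the developing microspores, secretes lipids and proteins that build the outer pollen wall, and then breaks down by programmed cell death. RTS is a tapetum gene whose silencing in rice gives male-sterile plants. C6 is a lipid transfer protein secreted by the tapetum and needed for the pollen wall and for the orbicules, the small wall bodies on the tapetal surface. RAFTIN1 is a protein with a BURP domain that is known from wheat and rice to be carried from the tapetum to the microspore wall. C4, also listed as Osg4B, was isolated from anthers as a tapetum gene.

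Signals are linear, and each array had a trimmed mean signal of 500.1. The background level of an array is the 95th percentile of 69 control probe sets that target no rice transcript and no hybridisation spike. It lay at 30.0 and 36.8 for the control pair and at 43.4 and 39.2 for the overexpressor pair. Between 57.0% and 61.8% of the probe sets of an array lay above it. The labels were checked first on the targeted gene. The probe set of RR6 gave 2558.7 and 2733.2 on the control arrays against 2264.2 and 1989.4 on the arrays labelled overexpressor, a log2 difference of -0.32 (SE 0.10, limma adjusted p = 0.0597), so it was not raised. Whether this probe set can detect the transgene was not tested. The name overexpressor is used below as the label of these arrays. As leaf markers, 9 genes of photosynthesis and leaf metabolism were read. Among them RBCS, the small subunit of Rubisco, had signals of 23574.6 and 23840.0 on the control arrays. On the overexpressor arrays it gave 21526.4 and 19817.5. The signal of such genes cannot show whether floral or other tissue was mixed into a sample, and this was not tested.

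RTS (RefSeq symbol LOC4326940), the tapetum gene of male fertility, had a signal of 3702.3 and 4044.3 on the control arrays against 10.8 and 3.8 on the overexpressor arrays. The control mean was 3873 ± 241.8 (SD, n = 2), and both overexpressor arrays lay within the background, so the signal was at least 86.36-fold lower there. On the scale of log2(signal + 3.6) the deposited values differ by -8.55 (SE 0.48 from the spread within the groups), which is not a measured size because the overexpressor values carry none. Among the 28629 probe sets tested, LOC4326388 had a similar bound, at least 80.24-fold lower.

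C6 (LOC4350790), the secreted lipid transfer protein, had a signal of 5288.5 and 5682.4 on the control arrays against 113.6 and 23.2 on the overexpressor arrays. The first overexpressor array was above its background level and the second was not. The group means were 5485 ± 278.5 and 68.4 ± 63.92 (SD, n = 2 each), a ratio of 80.2, and the log2 difference was -6.61 (SE 1.07). This difference includes the value within the background.

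RAFTIN1 (LOC4345929, also BURP13), the BURP protein carried to the microspore wall, had a signal of 963.5 and 1019.4 on the control arrays against 132.4 and 59.4 on the overexpressor arrays, all above background. The means were 991.5 ± 39.53 and 95.9 ± 51.62 (SD, n = 2 each), so that 9.67% of the control signal was left, and the log2 difference was -3.43 (SE 0.56). C4 (LOC9270168) gave 4115.2 and 3960.7 on the control arrays against 803.9 and 505.8 on the overexpressor arrays. Of its control mean of 4038 ± 109.2, 16.2% was left in the overexpressor group at 654.9 ± 210.8 (SD, n = 2 each), and the log2 difference was -2.66 (SE 0.33). Among the tested probe sets 38 had a lower difference than RAFTIN1 and 118 a lower one than C4.

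**Figure D1:**
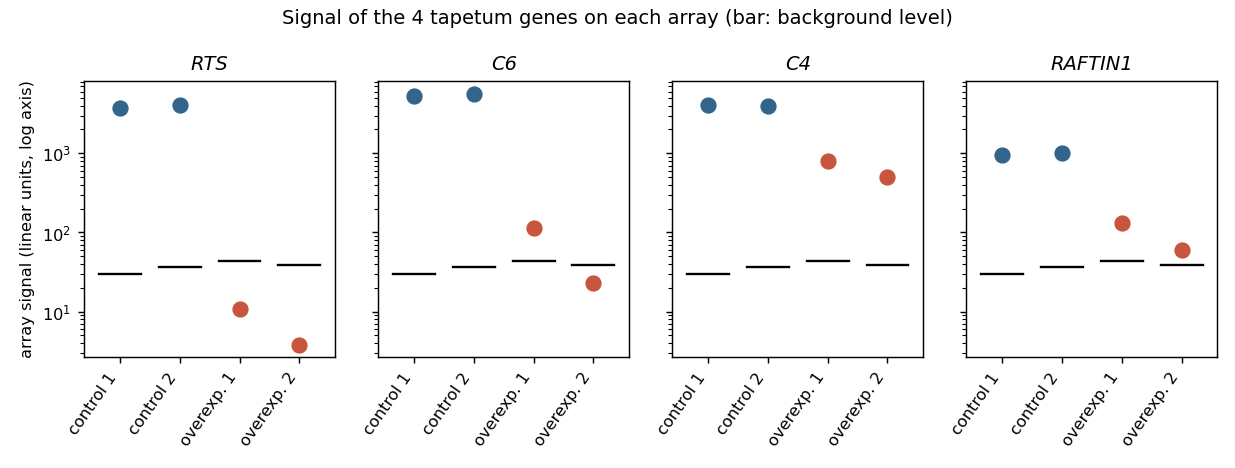
Signal of RTS, C6, C4 and RAFTIN1 on the 2 control arrays (blue) and the 2 overexpressor arrays (red), in linear units on a log axis, with the background level of each array as a black bar. The control arrays of each gene lie together, RTS is within the background on both overexpressor arrays, C6 on the second only, and C4 and RAFTIN1 are above it on all arrays.

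In all 4 genes both overexpressor arrays lay below both control arrays, as they did for 28.3% of all tested probe sets, and since the genes were chosen on this contrast nothing more is read from that count. For 39.7% both lay above. Across all tested probe sets 28.5% differed between the groups at an adjusted p under 0.05, 13.1% lower and 15.4% higher in the overexpressor arrays, and the median log2 difference was 0.08. All 4 probe sets passed the filter on dim probe sets, which uses the mean over all arrays, so that a high control signal alone can carry a gene through it. In bulk leaf RNA, fewer cells that carry a transcript and less of it per cell cannot be told apart. The probe sequences were not used here, so whether each probe set binds its named transcript alone was not tested.

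**Figure D2:**
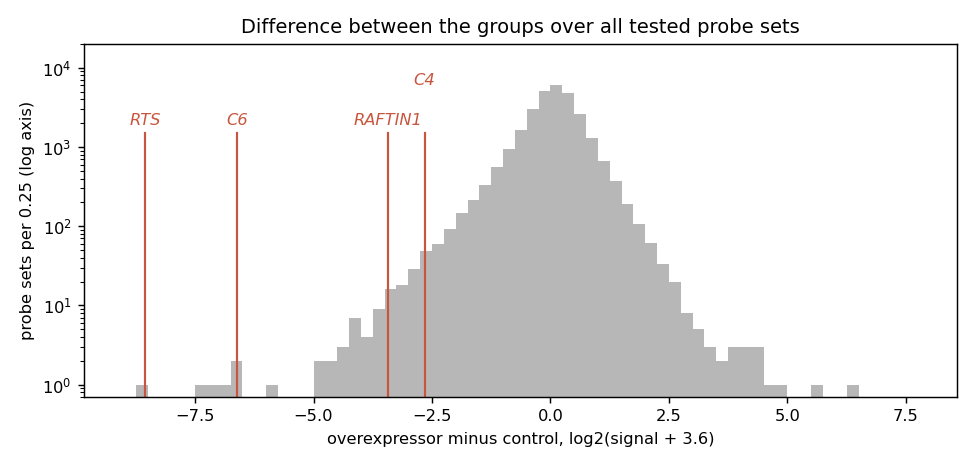
Histogram of the log2 difference, overexpressor minus control, over the 28629 tested probe sets (bins of 0.25, log axis for the counts), with red lines at the 4 tapetum genes. RTS at -8.55 and C6 at -6.61 lie far to the left, where overexpressor values within the background set the exact position, and RAFTIN1 at -3.43 and C4 at -2.66 lie in the lower tail.

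The 2 control arrays lay closer together than the 2 overexpressor arrays for C6, C4 and RAFTIN1, as they did over all probe sets, where the median absolute log2 difference within a pair was 0.115 against 0.203. On the log2 scale the second control array minus the first was 0.13 for RTS, 0.10 for C6, -0.06 for C4 and 0.08 for RAFTIN1. The second overexpressor array minus the first was -1.11 for RAFTIN1 and -0.66 for C4. For C6 the second array was within the background, so that only a bound of -1.45 or lower can be given, and both values of RTS were within it and have no order. Over all tested probe sets the second overexpressor array was lower for 47.0%, with a median of 0.02. The share of tested probe sets with a difference further down between these 2 arrays was 1.46% for RAFTIN1 and 4.57% for C4. Read on the first overexpressor array alone, the difference from the control mean was -5.55 for C6, -2.87 for RAFTIN1 and -2.32 for C4. On the second alone it was -3.98 for RAFTIN1 and -2.99 for C4, and for C6, set to the background level, -7.00 or lower.

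The profiles of the 4 genes over the arrays were compared as the Euclidean distance of their log2 values relative to the control mean. C4 and RAFTIN1 were nearest to each other at a distance of 1.14, then RTS and C6 at 2.86, and the remaining pairs lay between 4.56 and 8.34. Since the control arrays lie close, these distances mostly follow the group difference on which the genes were chosen. Those of RTS and C6 include values within the background and have no measured size. Among the 31381 other probe sets above background on both control arrays, the named genes nearest to C4 were the chitinase Chia1d at 0.09, the chitinase Cht6 at 0.25 and the protein phosphatase PP2C30 at 0.25. Chia1d gave 4863.5 and 4957.6 on the control arrays against 997.2 and 644.9 on the overexpressor arrays. Nearest to RAFTIN1 were NIP4-1, an aquaporin of the NIP class, at 0.33, the protein phosphatase PP2C68 at 0.53 and the homeobox gene HOX24 at 0.94. NIP4-1 gave 699.6 and 623.4 on the control arrays against 71.6 and 37.0 on the overexpressor arrays, of which only the first was above background.

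RTS and C6 had no named gene close to them, but a gene with a lower control signal cannot fall as far on this scale. The nearest for both was VLN4, a villin that binds actin filaments, at 6.21 from RTS and 3.71 from C6, with signals of 117.4 and 135.4 on the control arrays, and values within the background on both overexpressor arrays, at least 2.89-fold lower. NIP4-1 and PP2C68 followed for both genes. Without regard to a name, the nearest profile was LOC4348109 for RTS at 1.64 and LOC4342551 for C6 at 1.09. LOC4348109 gave 1681.5 and 1484.4 on the control arrays against 8.3 and 3.7 on the overexpressor arrays, within the background as RTS was. Distances rest on 4 arrays, and values within the background carry no order.

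**Figure D3:**
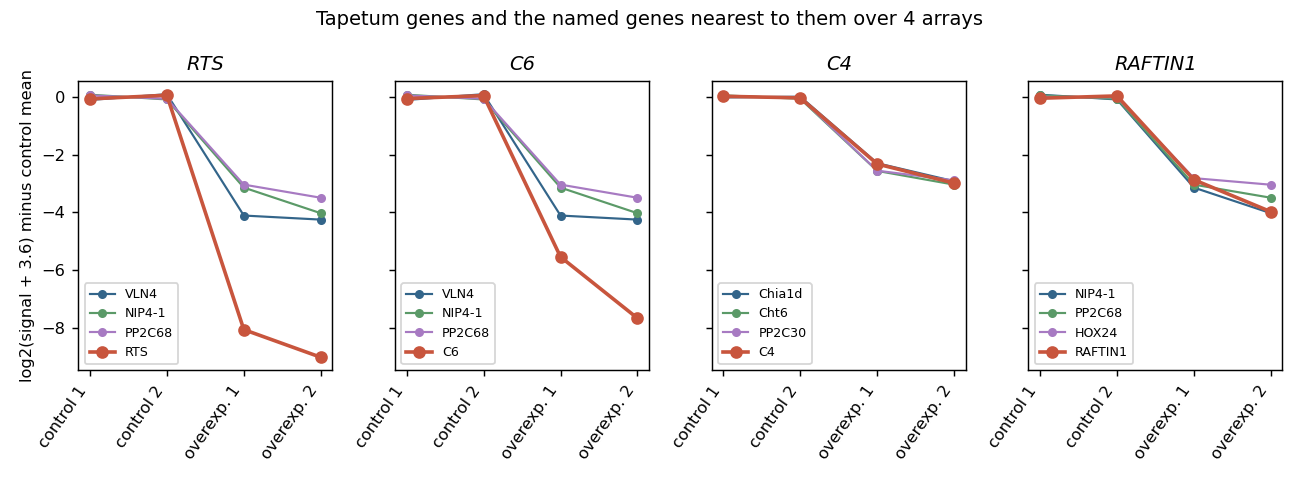
Profile over the 4 arrays of each tapetum gene (thick red) and of the 3 named genes nearest to it, as log2(signal + 3.6) minus the control mean. The lines of C4 and of Chia1d, Cht6 and PP2C30 nearly coincide, those of RAFTIN1 and NIP4-1 run close, and RTS and C6 drop below all the named genes drawn with them.

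Other genes of the anther were examined from lists of tapetum regulators, tapetum secretion and breakdown, pollen wall lipid synthesis, anther sugar supply, and pollen. In that order the lists held 19, 15, 22, 12 and 21 symbols. Apart from genes that only share a symbol, the table of rice genes had 10, 3, 1, 11 and 3 for them. Of these, 23 genes had a probe set and 15 were bright enough to be tested, so the counts below do not cover the lists as a whole. By limma with Benjamini-Hochberg adjustment over all probe sets, 3 were lower, 4 higher and 8 not past the threshold, with a median log2 difference of 0.20, while over the 15852 genes tested 34.0% passed, 15.2% lower and 18.8% higher, with a median of 0.09. With 1 control array left out, the spread in the fit comes from the overexpressor pair alone. That pair lay further apart over all tested probe sets, with a median absolute log2 difference of 0.203 against 0.115. Calls lost in such fits, as given below, are therefore not read as a dependence on 1 control array.

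CYP703A3, the cytochrome P450 that hydroxylates fatty acids for the pollen wall, had the lowest difference among the tested genes of these lists. It gave 345.5 and 291.6 on the control arrays against 63.2 and 87.6 on the overexpressor arrays, so both groups were above background and did not overlap. It fell by 2.04 on the log2 scale (SE 0.25, adjusted p = 0.00277), and it was the only gene of its list with a probe set. EXPB9, a beta-expansin of the grass pollen type, fell by 1.71 (SE 0.44, adjusted p = 0.0300). Its signal went from 109.0 and 117.9 to 47.5 and 21.3, the last within the background. Only its control signal carried EXPB9 through the filter on dim probe sets, and it is among the genes counted as lower. By limma its adjusted p was 0.0931 without this filter and 0.0507 without the trend. Without control replicate 1 or 2 its adjusted p was 0.104 or 0.123. HXK5, a hexokinase, fell by 0.53 (SE 0.11, adjusted p = 0.0166), with adjusted p of 0.0638 and 0.180 without control replicate 1 and 2, and of 0.198 under scaling to the hybridisation spikes.

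Of the 5 tapetum regulators tested, 0 were lower by limma, also at an unadjusted p under 0.05, and 1 was higher. With genes that only share a symbol with a list gene counted as well, 1 was lower and 2 were higher. Over all genes tested 15.2% were lower and 18.8% higher, and 19.9% were lower at an unadjusted p under 0.05. Counts among so few genes are not read as a result about the regulators. API5, an inhibitor of apoptosis needed for the timing of tapetal death, gave 1450.8 and 1399.3 against 2072.5 and 2178.5 and rose by 0.58 (SE 0.09, adjusted p = 0.00629), with adjusted p of 0.0606 and 0.0756 without control replicate 1 and 2. MSP1, the receptor kinase that limits the number of sporogenous cells, stood at 0.37, GAMYB, the gibberellin-regulated MYB factor, at 0.30, and the bHLH factors of tapetal death TDR and EAT1 at -0.34 and -0.55, none past the threshold. PTC1, a PHD-finger regulator of tapetal death, was too dim to be tested, at 61.3 and 48.0 on the control arrays and within the background on both overexpressor arrays, at least 1.29-fold lower. MADS3, a stamen identity factor, was at 67.9 and 83.4 and then within the background, at least 1.76-fold lower. AP25, an aspartic protease of tapetal breakdown, gave 3056.7 and 2971.5 against 5481.5 and 6551.6. It rose by 0.99 (SE 0.10, adjusted p = 0.00168), the opposite direction to the 4 tapetum genes. AP25 was the only tested gene of the list of tapetum secretion and breakdown.

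Among the sugar genes SWEET11, a sucrose transporter, rose by 1.12 (SE 0.31, adjusted p = 0.0391) and SWEET14 by 0.81 (SE 0.22, adjusted p = 0.0350). Both calls were lost without either control array and with each array centred on its median, where the adjusted p was 0.0604 and 0.0532. SWEET11 gave 612.6 and 619.6 on the control arrays against 931.3 and 1927.6 on the overexpressor arrays, and its difference was 1.64 without overexpressor replicate 1 and 0.59 without replicate 2. Both values come from probe sets that can bind several transcripts, and the other probe set of SWEET14, without this limit, did not pass at 0.47 (SE 0.21, adjusted p = 0.145). The sucrose transporter SUT1, the invertase CIN4 and the MYB factor MYBS1 did not pass, at 0.20, -0.46 and 0.19. In the pollen list the formin FH5 did not pass at 0.36, and EXPB10 was within the background on all arrays.

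Other floral and reproductive genes were also read in these leaf samples. Of 14 floral organ identity genes tested 3 were lower and 0 higher by limma, with 8 lower and 0 higher at an unadjusted p under 0.05, and their median log2 difference was -0.35. Over all genes tested 15.2% were lower and 18.8% higher, and at an unadjusted p under 0.05 the shares were 19.9% and 27.6%. MADS1, a lemma and palea identity factor, fell by 1.01 (SE 0.19, adjusted p = 0.0105), from 1411.2 and 1337.3 to 561.8 and 826.1. MADS8, a SEPALLATA-class factor, fell by 0.80 (SE 0.12, adjusted p = 0.00560) and MADS15, related to APETALA1 of Arabidopsis, fell by 0.38 (SE 0.08, adjusted p = 0.0161). The calls of MADS8 and MADS15 were lost without either control array and that of MADS1 without control replicate 1. Under scaling to the hybridisation spikes the call of MADS15 was lost as well, with an adjusted p of 0.614. The other 11 floral organ identity genes did not pass. Among them MADS16 stood at 0.03 (SE 0.12), with 1739.9 and 1968.1 on the control arrays against 2065.1 and 1737.0 on the overexpressor arrays. Of 8 genes of male meiosis and the early anther tested, 1 was lower and 2 were higher. DTM1, needed for early tapetum and meiosis, fell by 0.68 (SE 0.09, adjusted p = 0.00394), and TDL1B rose by 1.55 (SE 0.23, adjusted p = 0.00499). HEI10, a meiotic crossover factor, rose by 1.22 (SE 0.28, adjusted p = 0.0225). The call of HEI10 was lost without either control array and without overexpressor replicate 1. It was also lost without the filter on dim probe sets (limma adjusted p = 0.0770). DTM1 had an adjusted p of 0.0511 without control replicate 2.

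The leaf markers moved between the groups too. Of 9 tested 6 were lower and 0 higher by limma (9 lower and 0 higher at an unadjusted p under 0.05), against 15.2% and 18.8% of all genes tested (19.9% and 27.6% unadjusted), with a median log2 difference of -0.51. Their summed signal was 114000 and 118100 on the control arrays against 83740 and 79890 on the overexpressor arrays, and no marker was at the background. rcaA1, the Rubisco activase, fell by 1.10 (SE 0.07, adjusted p = 0.000390) and CHLH, a subunit of magnesium chelatase, fell by 0.64 (SE 0.08, adjusted p = 0.00254). PORA, an enzyme of chlorophyll synthesis, fell by 1.29 (SE 0.09, adjusted p = 0.000500) and the photosystem subunit gene PSAG1 fell by 1.26 (SE 0.11, adjusted p = 0.000909). The other probe sets of rcaA1 were also called lower. Dimmer probe sets of CHLH and PSAG1 did not pass, at 0.52 and -0.52 (limma adjusted p = 0.326 and 0.329). The part of the leaf marker shifts in the differences of RTS, C6, C4 and RAFTIN1 was not tested.

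RAFTIN1 belongs to the BURP family and C6 to the lipid transfer proteins, so their relatives were examined. Of 10 relatives tested 0 were lower by limma, also at an unadjusted p under 0.05, 5 were higher and 5 not past the threshold, with a median log2 difference of 0.35. The shares over all genes were 15.2% lower and 18.8% higher, with 19.9% lower at an unadjusted p under 0.05. BURP16 differed most. It was within the background on both control arrays, at 10.5 and 4.3, and gave 2124.0 and 341.7 on the overexpressor arrays, at least 23.26-fold higher (adjusted p = 0.00305). The bound was 57.75-fold from the first overexpressor array alone and 9.37-fold from the second. Only its overexpressor signal carried BURP16 through the filter on dim probe sets, and it is among the 5 counted as higher. Its overexpressor arrays were far apart, with the first the higher, as for C6, C4 and RAFTIN1. BURP12 rose by 0.81 (SE 0.24, adjusted p = 0.0453) and BURP17 by 0.24 (SE 0.07, adjusted p = 0.0480), and both calls were lost without either control array and with each array centred on its median. The call of BURP12 was lost without any 1 of the 4 arrays, and BURP17 had an adjusted p of 0.0904 with the replicate number as a block. BURP3 at -0.19 and BURP2 at -0.41 did not pass. The BURP2 value comes from a probe set that can bind several transcripts. Its other probe set gave 220.2 and 277.8 on the control arrays against 17.9 and 214.6 on the overexpressor arrays. There the difference was -1.87 (SE 0.96, limma adjusted p = 0.195), also not past the threshold.

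Among the lipid transfer genes LTPL1 rose by 0.46 (SE 0.08, adjusted p = 0.00754), from 7606.1 and 7295.0 to 9887.5 and 10612.0, and LTP110-A by 0.46 (SE 0.09, adjusted p = 0.0140). Both calls were lost without either control array. LTP-2, LTP2-B and LTP did not pass, at 1.38, 0.21 and -0.06. Without either control array 1 relative was higher and 0 were lower, and without overexpressor replicate 1 or 2 there were 5 higher and 1 or 2 lower.

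**Figure D4:**
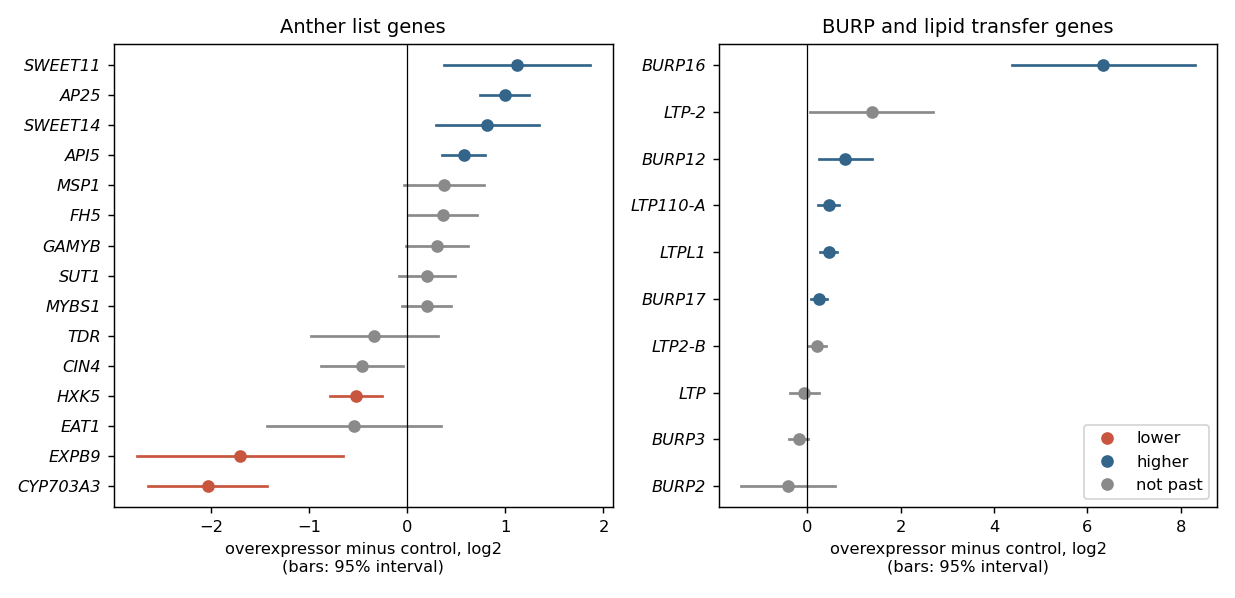
Log2 difference, overexpressor minus control, of the tested anther list genes (left) and of the BURP and lipid transfer relatives of RAFTIN1 and C6 (right), with 95% intervals from limma. Red marks genes past the threshold and lower, blue past it and higher, grey not past. CYP703A3 and EXPB9 have the lowest values on the left, and BURP16 at 6.34 the highest on the right. The control values of BURP16 lie within the background, so 6.34 is not a measured size.

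The nearest tested genes to the 4 tapetum genes on the chromosome were read as well. Genes without a tested probe set were passed over, 3 between C4 and LOC4346223 and 2 between RAFTIN1 and HAP5D. Between RTS and LOC4326942, and between C6 and LOC4350788, 1 gene was passed over. In the order of assembly ASM3414082v1, the next gene with a tested probe set was taken on each side. Of these 8 genes 0 were lower by limma, also at an unadjusted p under 0.05, 4 were higher and 4 not past the threshold, where 15.2% of all genes were lower and 18.8% higher (19.9% lower unadjusted). Beside RTS both neighbours were read by probe sets that can bind several transcripts. LOC4326939 rose by 0.85 (SE 0.15, adjusted p = 0.00961) and LOC4326942 by 1.15 (SE 0.17, adjusted p = 0.00474), and without either control array the call of LOC4326939 was lost. Beside C4, LOC4346223 gave 85.1 and 119.7 on the control arrays against 445.4 and 660.6 on the overexpressor arrays and rose by 2.38 (SE 0.27, adjusted p = 0.00202), and LOC4346226 rose by 1.11 (SE 0.09, adjusted p = 0.000629). Beside C6, LOC4350788 at -0.33 and LOC4350791 at 0.77 did not pass, the latter with an adjusted p of 0.0561. Beside RAFTIN1, HAP5D, a subunit of the CCAAT-binding factor, stood at 0.19 and LOC4345930 at 0.04.

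**Figure D5:**
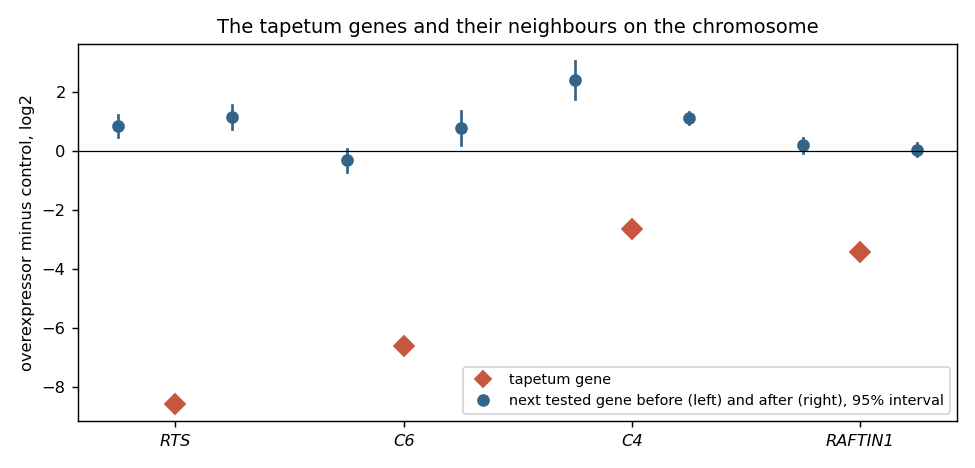
Log2 difference, overexpressor minus control, of each tapetum gene (red diamonds) and of the next tested gene before and after it on the chromosome (blue points with 95% intervals from limma). The neighbours lie between -0.33 and 2.38 and the tapetum genes between -8.55 and -2.66.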

How the data were processed

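Leaf RNA of 2 control and 2 overexpressor samples was hybridised to 1 array each, and groups and replicate numbers come from the sample titles. The table deposited by the authors holds linear intensity values of 57381 probe sets. Its software is not named in the sources used here. With 2% trimmed at both ends each array averaged 500.1, so a shift of all transcripts cannot be seen. Precision is limited by 2 arrays per group.

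Probe sets were named through the platform annotation, which gives 22436 of them 1 gene and 95 several, and 34850 are unnamed here. Differences are on log2(intensity + 3.6), the pseudocount being the 10th percentile, and this scale shrinks changes of dim transcripts. The 123 control probe sets and those with a mean below the median were left out, which kept 28629. These were fitted with limma 3.58.1 in R 4.3.3 (eBayes with a trend, two-sided, Benjamini-Hochberg adjustment over all probe sets, threshold 0.05), and the fit was tested on simulated data. A gene with several probe sets was read by its brightest tested one.

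The members and the gene lists were chosen with earlier results of these data known, and the list of male meiosis and early anther genes, the exclusion of genes that only share a symbol with a list gene, and the background level were set after the values had been seen. From each list up to 4 genes past the threshold with the smallest p were named (otherwise the 2 brightest), together with the 3 named genes nearest to each tapetum gene. The further genes of the lists named in the text were chosen after their values were seen. Replicate numbers were not taken to pair the samples. Alternatives covered the pseudocount, scaling, filter, model of the spread, replicate block, and leaving out each array. Protein, promoter and motif comparisons were not run.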

Additional observations from a re-analysis of the deposited data

How the results depend on the processing

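The differences of RTS, C6, C4 and RAFTIN1 kept their direction under all 11 alternatives run. This is a description, since the genes were chosen on this contrast, and the replicate block returns the same difference by design. The difference of RTS was -7.40 with a pseudocount of 16 and -9.05 as the log2 ratio of mean intensities, since its overexpressor signal lies within the background. For all probe sets, 3760 were lower and 4410 higher. Scaling to the hybridisation spikes gave 2117 and 11530, a fit without the trend 2461 and 2580, and leaving out each array 1607 to 5233 lower and 1412 to 6152 higher. Of the anther list genes 3 were lower and 4 higher. The count lower was 1 with the filter at the 75th percentile and 1 without the trend, and the count higher was 2 with median centring, without the filter, without the trend or without probe sets that bind several transcripts, and 9 with spike scaling. Leaving out each array gave 1 to 4 lower and 1 to 6 higher. Of the relatives of RAFTIN1 and C6, 0 were lower and 5 higher by limma. The count higher was 3 with median centring, without the filter or with the filter at the 75th percentile, and 1 without the trend. Leaving out each array gave 0 to 2 lower and 1 to 5 higher. The filter changes which probe sets are tested, and leaving out an array changes which arrays set the spread. For the other alternatives the cause was not tested. Of 500 alternative values of 37 single genes 434 kept direction and side of the threshold, 56 lost the call, 8 gained one, and 2 reversed, both of LOC4345930, to -0.0584 with median centring and -0.0393 without overexpressor replicate 1 (0.128 without replicate 2). The deviations of same-numbered arrays correlated at -0.02 over 2 pairs, and with the replicate number as a block 3695 probe sets were lower and 4236 higher. Signal over background limits RTS and C6 in the overexpressor arrays.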
